A study of Homo sapiens with 4 samples.

Results

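The genes described here encode the NF-κB transcription factor subunits and the proteins that hold NF-κB in check: NFKB1, NFKB2, RELA, RELB, REL, NFKBIA, NFKBIE, NFKBIZ, TNFAIP3 and BCL3. They were taken as the array features (transcript clusters) whose only annotated symbol is one of these names. All 10 were found, each with a single cluster, among 22411 genes with a cluster of their own and 67528 transcript clusters in all. The list was drawn up with the difference between the groups of this experiment in view, so the values of the 10 genes are a description and carry no p-value.

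RNA was measured on Affymetrix whole-transcriptome arrays in HCT116, an established human colon cancer cell line. Cells received either an siRNA directed at CDK8 (n = 2) or a control siRNA (n = 2), each at 50 nM for 48 h. All 4 samples were HCT116 cells transfected with Lipofectamine RNAiMAX, and the labels call the replicates biological without saying whether cultures were separate, so the p-values rest on a spread that may be technical. With a single siRNA against CDK8, loss of CDK8 and other effects of that siRNA cannot be told apart. Because whole-culture RNA was measured, a change in the RNA of each cell and a change in the share of cells that make it cannot be told apart.

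NF-κB is a family of dimeric transcription factors. In resting cells most dimers are held in the cytoplasm by IκB proteins. Signals from receptors of cytokines and microbial products activate the IκB kinase complex, which marks IκB for destruction by the proteasome, and the freed dimers bind κB sites in DNA. Among the genes they switch on are those of their own subunits and inhibitors, a negative feedback loop that limits the response. In intestinal epithelium the pathway controls chemokines, adhesion molecules and survival genes. CDK8 is a kinase of Mediator, through which transcription factors reach RNA polymerase II.

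The signals are log2 values after RMA, a procedure that corrects background, brings the probe values of the arrays to 1 distribution and merges a feature's probes into 1 value. The merged values were not fully level. The median of all clusters was 4.32 and 4.31 on the CDK8 siRNA arrays and 4.24 and 4.24 on the control siRNA arrays. CDK8 itself had signals of 7.25 and 7.45 on the CDK8 siRNA arrays and 9.99 and 10.04 on the control siRNA arrays, and fell by 2.67 ± 0.09 (log2 difference ± SE, limma with Benjamini-Hochberg adjustment, adjusted p = 4.43e-05). Across the 13956 genes whose mean signal reached 4.28, the median of all clusters, 3229 were called higher with CDK8 siRNA (23.1%) and 3679 lower (26.4%) at an adjusted p under 0.05. With the arrays centred on their medians, the same fit called 2741 higher and 4359 lower. Of 8 colon epithelial markers 5 passed the level of 4.28 (EPCAM, CDH1, KRT8, KRT18 and KRT19), while CDX2, VIL1 and LGALS4 lay under it. Among the markers of other cells with a cluster, 0 of 5 for blood cells, 0 of 4 for endothelium and 1 of 4 for fibroblasts passed it. The log2 of their summed signals ran from 6.02 to 6.18 with CDK8 siRNA and from 5.96 to 5.97 with control siRNA for blood cells, from 5.60 to 5.67 and from 5.58 to 5.59 for endothelium, and from 6.21 to 6.23 and from 5.94 to 5.96 for fibroblasts, in the same order of groups. PTPRC, the pan-leukocyte marker, had signals of 3.53 and 3.53 with CDK8 siRNA and 3.49 and 3.41 with control siRNA. Of the markers that moved, the fibroblast collagen gene COL1A1 had 5.02 and 5.02 with CDK8 siRNA and 4.80 and 4.72 with control siRNA (0.26 ± 0.07, limma adjusted p = 0.0287; 0.0840 to 0.135 with an array left out). DCN, a fibroblast proteoglycan gene under the filter level, had 4.19 and 4.25 with CDK8 siRNA and 3.65 and 3.61 with control siRNA. Of the 5 tested epithelial markers, 3 were called higher, 1 lower and 1 was not called. The epithelial cadherin gene CDH1 rose 7.11-fold (2.83 ± 0.11, limma adjusted p = 6.10e-05). KRT18 was called lower (-0.335 ± 0.09, limma adjusted p = 0.0304) and KRT8 was not called (0.045 ± 0.13, limma adjusted p = 0.802). Without the filter, KRT18 and KRT19 were not called (limma adjusted p = 0.0512 and 0.0604). The log2 summed signal of the epithelial markers ran from 14.40 to 14.58 with CDK8 siRNA and from 14.19 to 14.21 with control siRNA. The part of these markers in the results below was not tested.

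All 10 NF-κB genes had higher signals on both CDK8 siRNA arrays than on both control siRNA arrays. Over all tested genes the groups failed to overlap in that direction in 36.4%. The 10 differences (CDK8 siRNA minus control siRNA) ran from 0.34 to 3.81 on the log2 scale with a median of 1.26, beside a median of 0.005 over all tested genes. Differences of at least 2-fold upward were measured for 5 of the 10, beside 5.11% of all tested genes. Since the list was chosen on this contrast, nothing is read from these shares. All 10 passed the filter on low signal, and the control siRNA mean of each was itself above the filter level. The difference was between 4.64 times the pooled replicate SD, for NFKBIE, and 36.4 times, for TNFAIP3. That SD rests on 2 arrays a group, and the ratio is a description of genes chosen on this contrast. With single arrays left out, the difference of NFKBIA ran from 3.67 to 3.95 and that of BCL3 from 0.29 to 0.38.

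**Figure D1:**
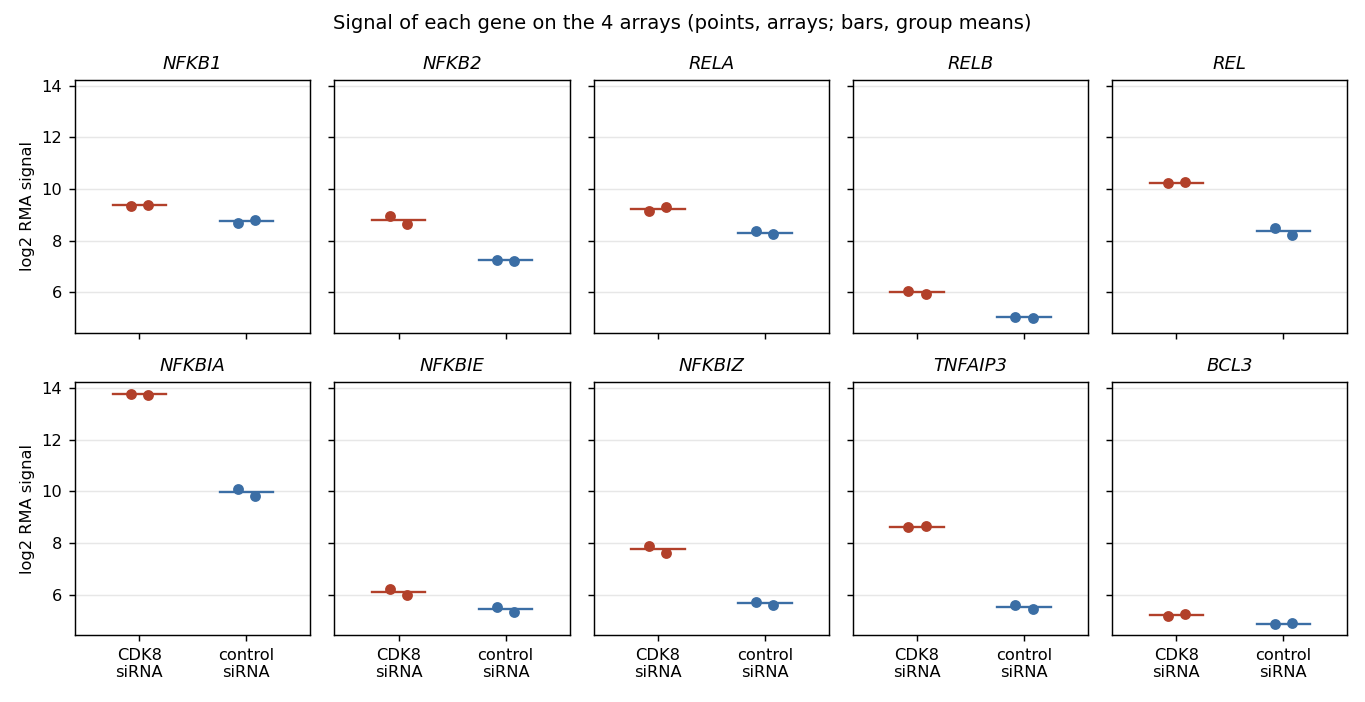
Log2 RMA signal (vertical axis) of each of the 10 genes on the 2 CDK8 siRNA arrays (red, left) and the 2 control siRNA arrays (blue, right), with group means as bars. In each panel both red points lie above both blue points, with the widest gap for NFKBIA (3.64) and the narrowest for BCL3 (0.28).

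Of the 5 subunit genes, 3 encode proteins with a transactivation domain. REL, which encodes c-Rel, had signals of 10.25 and 10.26 with CDK8 siRNA and 8.50 and 8.23 with control siRNA. The CDK8 siRNA arrays were nearly identical for it, the groups lay 1.75 apart at their closest, and the difference of 1.89 ± 0.11 (log2 ± SE) or 3.71-fold was the largest among the subunits. RELA, the most widely used activating subunit, had 9.15 and 9.32 with CDK8 siRNA and 8.37 and 8.26 with control siRNA. Its groups did not overlap, and it stood 1.89-fold higher (0.92 ± 0.09). RELB, the activating partner in the non-canonical pathway, had 6.06 and 5.94 with CDK8 siRNA and 5.04 and 5.02 with control siRNA. The groups lay 0.90 apart at their closest, and the difference was 1.96-fold (0.97 ± 0.08).

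The other two subunit genes encode precursors whose C-terminal parts act as IκB proteins until they are processed to the DNA-binding subunits. NFKB2, the precursor of the non-canonical pathway, had 8.94 and 8.64 with CDK8 siRNA and 7.27 and 7.20 with control siRNA. It differed by 1.56 ± 0.11 or 2.94-fold, and its CDK8 siRNA arrays were the farthest apart of any among the 10 genes (SD 0.21). NFKB1, the precursor of the most common partner of RELA, had 9.33 and 9.40 with CDK8 siRNA and 8.70 and 8.80 with control siRNA. Its groups were separated by 0.53, and the difference of 0.62 ± 0.08, or 1.53-fold, was the smallest among the subunits. The subunit differences thus ran from 0.62 to 1.89 with a median of 0.97, and 2 of 5 reached 2-fold.

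**Figure D2:**
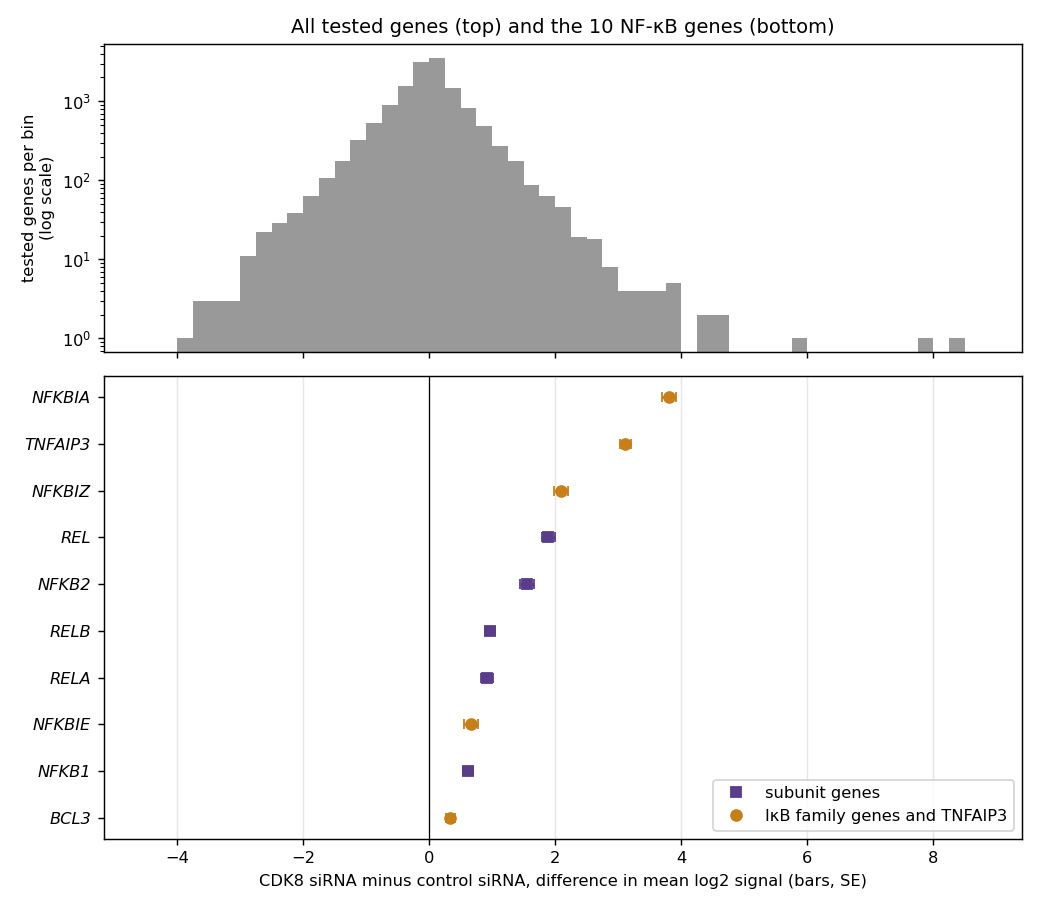
Horizontal axis, difference in mean log2 signal, CDK8 siRNA minus control siRNA. Top, number of tested genes per bin of 0.25 on a log scale (13956 genes); bottom, the 5 subunit genes (squares) and the 5 IκB family and TNFAIP3 genes (circles) with SE. All 10 lie right of 0, from BCL3 at 0.34 to NFKBIA at 3.81.

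Among the inhibitors, NFKBIA encodes IκBα, which pulls NF-κB dimers out of the nucleus after a stimulus. It had signals of 13.79 and 13.74 with CDK8 siRNA and 10.10 and 9.82 with control siRNA. The groups were 3.64 apart at their closest, and the difference of 3.81 ± 0.11, or 14.0-fold, was the largest of the 10 genes. TNFAIP3, a ubiquitin-editing enzyme that shuts off signalling upstream of the IκB kinases, had 8.61 and 8.67 with CDK8 siRNA and 5.61 and 5.45 with control siRNA. It stood 8.63-fold higher (3.11 ± 0.09), with both groups tight around their means (SD 0.04 and 0.11). NFKBIE, which encodes IκBε, a slower feedback inhibitor with the same cytoplasmic role as IκBα, had 6.21 and 5.99 with CDK8 siRNA and 5.53 and 5.35 with control siRNA. Its difference of 0.66 ± 0.11, or 1.58-fold, was far below that of NFKBIA, and its groups were separated by 0.46.

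The atypical IκB proteins act in the nucleus, where they bind homodimers of the precursor-derived subunits and can raise or lower transcription. NFKBIZ, which encodes IκBζ, a coactivator of a subset of inflammatory genes, had 7.90 and 7.62 with CDK8 siRNA and 5.71 and 5.62 with control siRNA. It stood 4.27-fold higher (2.10 ± 0.11), the third largest difference. BCL3 had 5.17 and 5.26 with CDK8 siRNA and 4.87 and 4.89 with control siRNA. Its difference of 0.34 ± 0.07 (1.26-fold) was the smallest of the 10, on the lowest control signal, although the groups did not overlap. Over the 5 genes of the IκB family and TNFAIP3 the differences ran from 0.34 to 3.81 with a median of 2.10, a wider range than among the subunits.

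The κB consensus was searched in the 250 bases before each RefSeq transcription start (GRCh38.p14), on both strands, with overlapping matches counted as 1. It was the only motif searched. RefSeq promoters were matched for 8 of the 10 genes by symbol, 13 starts in all; RELB and NFKBIE are named only. A match stood before at least 1 start of 6 of these 8 genes (NFKB1, NFKB2, REL, NFKBIA, NFKBIZ and TNFAIP3) and before 0 starts of RELA and BCL3. Among all 27305 genes with a promoter 11.8% had a match, and among all 35116 promoters 9.96%. A match describes the letters in the window and does not show binding. Genes with a match had differences from 0.62 ± 0.08 (NFKB1) to 3.81 ± 0.11 (NFKBIA). RELA (0.92 ± 0.09) and BCL3 (0.34 ± 0.07) had none. The list was chosen on this contrast and names genes of the NF-κB feedback loop, so nothing is read from these matches.

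The windows below are shown because they hold matches of the genes described above. A match before start 2 of NFKBIZ and another before start 3 of NFKB2 lie outside them. They are written 5′ to 3′ on the strand of the gene, with κB consensus matches on either strand in capitals. The NFKBIA window is chr14:35404750-35404869 on the minus strand, the TNFAIP3 window chr6:137867139-137867258, the NFKBIZ window chr3:101827740-101827859, the REL window chr2:60881454-60881573 and the NFKB1 window chr4:102501239-102501358, all of these on the plus strand. Except for NFKBIZ, whose window covers the bases from 250 to 131 before its first start, each ends at the base before the start. For NFKB2, with 3 starts, 30 bases around a match are given before start 2 (chr10:102394461-102394490 and chr10:102394490-102394519) and before start 3 (chr10:102395674-102395703), on the plus strand.
NFKBIA: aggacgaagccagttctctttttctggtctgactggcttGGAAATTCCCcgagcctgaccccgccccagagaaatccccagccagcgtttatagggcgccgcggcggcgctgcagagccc
TNFAIP3: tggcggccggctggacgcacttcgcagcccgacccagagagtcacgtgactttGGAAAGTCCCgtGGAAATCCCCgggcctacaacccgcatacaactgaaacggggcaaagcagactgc
NFKBIZ: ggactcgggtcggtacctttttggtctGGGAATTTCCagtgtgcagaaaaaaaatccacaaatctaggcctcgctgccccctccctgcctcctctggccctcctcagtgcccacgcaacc
REL: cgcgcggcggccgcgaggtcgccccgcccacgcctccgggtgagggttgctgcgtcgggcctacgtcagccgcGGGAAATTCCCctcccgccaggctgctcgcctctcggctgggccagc
NFKB1: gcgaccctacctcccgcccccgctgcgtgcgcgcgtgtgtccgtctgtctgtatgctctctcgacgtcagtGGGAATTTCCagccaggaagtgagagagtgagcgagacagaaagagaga
NFKB2, start 2: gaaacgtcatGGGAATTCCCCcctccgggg
NFKB2, start 2: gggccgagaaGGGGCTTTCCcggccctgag
NFKB2, start 3: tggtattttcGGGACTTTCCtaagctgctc

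The matches before the first starts of NFKB1 and NFKBIZ read GGGAATTTCC on the strand of the gene, and those of NFKBIA and REL hold the same 10 letters on the opposite strand. This word was singled out after the windows were read, and it stands in 0.176% of all genes with a promoter. In NFKBIA the match lay 81 to 72 bases before the start. TNFAIP3 had a pair of matches, 67 to 58 and 55 to 46 bases before the start, both on the opposite strand. NFKBIZ had a further match with other letters 239 to 230 bases before start 2. The match of REL lay 47 to 37 bases before the start and that of NFKB1 49 to 40 bases before the first start. NFKB2 had 2 sites before start 2 and 2 before start 3, and those before start 3 lay 176 to 167 and 21 to 12 bases before that start. The array signal of NFKB2 covers the gene as a whole and does not say which start was used.

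**Figure D3:**
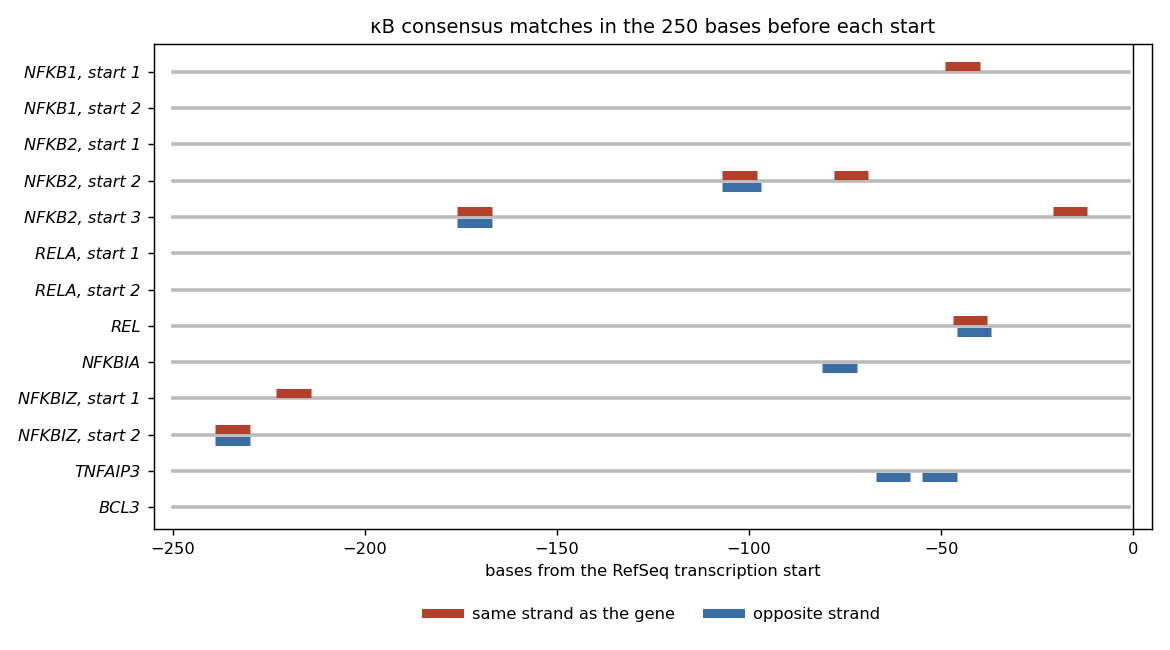
Matches to the κB consensus in the 250 bases before each RefSeq start of the 8 genes with a promoter (horizontal axis, bases from the start). Red blocks lie on the strand of the gene and blue blocks on the opposite strand, and 8 of the 13 starts have at least 1.

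The other genes of the pathway were read from 6 lists of 125 genes in all, of which 88 had a cluster of their own and enough signal to be tested. Of these, 45 were called higher and 15 lower with CDK8 siRNA and 28 were not called (limma, adjusted p under 0.05), with a median difference of 0.23. The 45 include IL1A, TRAF1 and CXCL3, whose control siRNA means lay under the filter level. These genes were tested only because they were high with CDK8 siRNA, so their calls are a description. The background over all tested genes was 23.1% called higher and 26.4% lower. The lists were drawn up with earlier results of these data known, so nothing is read from the counts beside this background. Of the 60 calls 34 held in every alternative setting that tested the gene. Genes are named below with their log2 difference ± SE and limma's adjusted p.

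Upstream of the IκB kinases, the list of ligands and receptors held 20 genes, of which 18 had a cluster and 11 were tested, and 4 were called higher and 1 lower. TLR3, the endosomal receptor of double-stranded RNA, had signals of 6.72 and 6.93 with CDK8 siRNA and 5.68 and 5.60 with control siRNA, and rose 2.27-fold (1.19 ± 0.10, adjusted p = 3.42e-04). It was the only call of this list that held in every setting. IL1A, a cytokine that activates the pathway, had 4.62 and 5.14 with CDK8 siRNA and 3.86 and 3.81 with control siRNA (1.05 ± 0.17, adjusted p = 0.00419), a call lost without control siRNA replicate 1 or 2 (highest adjusted p = 0.110). Its control siRNA signals lay under the filter level, so it was tested only because it was high with CDK8 siRNA, and its values are a description. TNF, the classical inducer, lay under the filter level with 3.93 and 4.11 with CDK8 siRNA and 3.78 and 3.67 with control siRNA. IL1B also lay under it, with 3.68 and 3.68 with CDK8 siRNA and 3.55 and 3.54 with control siRNA. Calls upward in this list numbered 2 without CDK8 siRNA replicate 1 or 2 and 1 without control siRNA replicate 1 or 2, and downward calls 0 without CDK8 siRNA replicate 1 or either control siRNA replicate (limma, with 3 at an unadjusted p under 0.05 on all 4 arrays).

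Among 31 adaptors and ubiquitin ligases, 24 were tested, 12 were called higher, 1 was called lower and 11 were not called. The 12 include TRAF1, whose control siRNA mean of 4.255 lay under the filter level. It was tested only because it was high with CDK8 siRNA, so its call is a description. BCL10, the adaptor that couples CARD proteins to the IκB kinases, rose 3.38-fold, with 9.18 and 9.19 with CDK8 siRNA and 7.49 and 7.37 with control siRNA (1.76 ± 0.08, adjusted p = 7.05e-05). BIRC2, the ubiquitin ligase cIAP1, rose 3.08-fold (1.63 ± 0.08, adjusted p = 8.91e-05), and IRAK2, a kinase of the interleukin-1 and Toll-like receptor pathways, rose 2.59-fold (1.38 ± 0.09, adjusted p = 2.04e-04). The call that went down was MAVS, the mitochondrial adaptor of the RNA sensors, which fell by 1.03 ± 0.12 (adjusted p = 0.00107). RIPK2, the kinase that serves NOD receptors, was called higher (1.17 ± 0.14, adjusted p = 0.00127), but not without control siRNA replicate 1 or 2 (highest adjusted p = 0.0637). Upward calls numbered 8 without CDK8 siRNA replicate 1 or 2, while dropping control siRNA replicate 1 left 6 and dropping control siRNA replicate 2 left 4.

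The list of IκB kinases, their partners and the IκB degradation machinery split. Of 12 tested, 6 were called higher, 5 lower and 1, IKBKG, was not called. TANK, an adaptor that binds TRAF proteins and TBK1, fell the most, with 8.10 and 8.13 with CDK8 siRNA and 10.03 and 10.16 with control siRNA (-1.98 ± 0.08, adjusted p = 5.96e-05). CHUK, the catalytic subunit IKKα, had 8.79 and 8.78 with CDK8 siRNA and 9.72 and 9.69 with control siRNA and fell by 0.92 ± 0.07 (adjusted p = 2.73e-04). IKBKB, the subunit IKKβ that phosphorylates IκBα, differed by 0.23 ± 0.07 (adjusted p = 0.0369), a call lost with any array left out (adjusted p from 0.0730 to 0.134) and with arrays centred on their medians. ERC1, a scaffold of the kinase complex, fell by 0.78 ± 0.08 (adjusted p = 8.59e-04). The other degradation genes went both ways. BTRC, an F-box protein that recognises phosphorylated IκB, fell by 0.59 ± 0.08 (adjusted p = 0.00219), and CUL1 was called lower (-0.24 ± 0.08, adjusted p = 0.0448). FBXW11 (0.365 ± 0.07, adjusted p = 0.00901) and SKP1 (0.385 ± 0.07, adjusted p = 0.00601) were called higher. The calls of CUL1, FBXW11 and SKP1 were lost without control siRNA replicate 1 or 2. That of FBXW11 was also lost without CDK8 siRNA replicate 2, and that of CUL1 without CDK8 siRNA replicate 1 or 2. CUL1 was also not called without the filter (limma adjusted p = 0.0592), with an eBayes trend (0.0643) or with the replicate number as a block (0.0785). TBK1 rose 2.07-fold (1.05 ± 0.08, adjusted p = 2.48e-04) and IKBKE 1.47-fold (0.56 ± 0.07, adjusted p = 0.00150); both encode kinases related to the IκB kinases. When single arrays were dropped, upward calls numbered 4 (CDK8 siRNA replicate 1), 3 (CDK8 siRNA replicate 2) and 2 (either control siRNA replicate), while downward calls numbered 4 whichever array was left out.

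Other inhibitors outside the 10 genes were called higher in 9 of 19 tested, lower in 2 and not called in 8. TAX1BP1, an adaptor of TNFAIP3, had 11.65 and 11.69 with CDK8 siRNA and 10.02 and 10.06 with control siRNA, and rose 3.10-fold (1.63 ± 0.07, adjusted p = 6.88e-05). TNIP1, which binds TNFAIP3 and polyubiquitin, rose 2.02-fold (1.02 ± 0.10, adjusted p = 6.33e-04). CYLD, a deubiquitinase that trims the chains used in NF-κB signalling, rose 2.93-fold, with 7.84 and 7.83 with CDK8 siRNA and 6.32 and 6.25 with control siRNA (1.55 ± 0.07, adjusted p = 7.59e-05). ZC3H12A, a ribonuclease that degrades inflammatory mRNAs, rose 1.49-fold (0.57 ± 0.07, adjusted p = 0.00156). The upward calls of NFKBIL1, OTULIN, RNF11, PDLIM2 and TOLLIP were lost without control siRNA replicate 1 or 2. N4BP1, a further inhibitor, fell by 0.70 ± 0.08 (adjusted p = 0.00112). NFKBIB, which encodes IκBβ, the remaining classical IκB, had 6.76 and 6.80 with CDK8 siRNA and 7.16 and 7.14 with control siRNA. It was called lower (-0.37 ± 0.07, adjusted p = 0.00702), a call lost without control siRNA replicate 1 or 2 (highest adjusted p = 0.0686). The log2 differences of the 3 classical IκB genes were thus 3.81 for NFKBIA, 0.66 for NFKBIE and -0.37 for NFKBIB. When single arrays were dropped, upward calls numbered 7 (CDK8 siRNA replicate 1), 5 (CDK8 siRNA replicate 2) and 4 (either control siRNA replicate), and downward calls 1 (either control siRNA replicate).

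Nuclear cofactors went mostly the other way. Of 14 listed, 8 were tested, 6 were called lower and 1 higher, with a median of -0.64. HDAC1, HDAC2 and HDAC3, histone deacetylases that can deacetylate NF-κB and its target promoters, fell by 0.96 ± 0.09 (adjusted p = 6.34e-04), 1.27 ± 0.11 (adjusted p = 4.16e-04) and 1.04 ± 0.07 (adjusted p = 2.15e-04). NCOA1, a coactivator, fell by 0.87 ± 0.08 (adjusted p = 6.32e-04). SETD7, a lysine methyltransferase with RELA among its substrates, rose 4.01-fold, with 10.20 and 10.42 with CDK8 siRNA and 8.24 and 8.37 with control siRNA (2.01 ± 0.10, adjusted p = 9.69e-05). CREBBP, the acetyltransferase that serves RELA, was not called (-0.28 ± 0.15, adjusted p = 0.185).

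Of 27 genes known as NF-κB targets in other systems, 14 passed the filter. A gene with little signal under control siRNA reached the filter level only if its signal was high with CDK8 siRNA, so this count is a description. Of the 14, 13 were called higher, 0 lower by limma (0 at an unadjusted p under 0.05) and 1, CD83, was not called. CXCL8 and CCL20, chemokines of neutrophils and lymphocytes, had the largest differences (8.37 ± 0.12, adjusted p = 2.23e-05, and 7.82 ± 0.36, adjusted p = 7.89e-05), both larger than that of NFKBIA. SDC4, a proteoglycan of the cell surface, rose 26.6-fold (4.74 ± 0.10, adjusted p = 3.12e-05) and TNFAIP2 6.32-fold (2.66 ± 0.10, adjusted p = 5.00e-05). ICAM1, an adhesion molecule for leukocytes, had 6.47 and 6.49 with CDK8 siRNA and 5.22 and 5.21 with control siRNA, and rose 2.40-fold (1.27 ± 0.07, adjusted p = 1.14e-04). The 10 targets with a cluster but under the filter level were not tested. Among them CCL5, a T cell chemokine, had 4.57 and 4.40 with CDK8 siRNA and 4.01 and 4.01 with control siRNA, and these groups did not overlap. CXCL10, a chemokine of interferon responses, had 3.48 and 3.84 with CDK8 siRNA and 3.35 and 3.05 with control siRNA, again without overlap. These were the 2 largest differences among the 10. IL6, a cytokine of the acute phase response, had 3.70 and 3.75 with CDK8 siRNA and 3.65 and 3.59 with control siRNA, under the filter level. VCAM1, an endothelial adhesion molecule, had 3.35 and 3.39 with CDK8 siRNA and 3.22 and 3.31 with control siRNA. The groups of IL6 and VCAM1 did not overlap either, with gaps of 0.05 and 0.04.

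**Figure D4:**
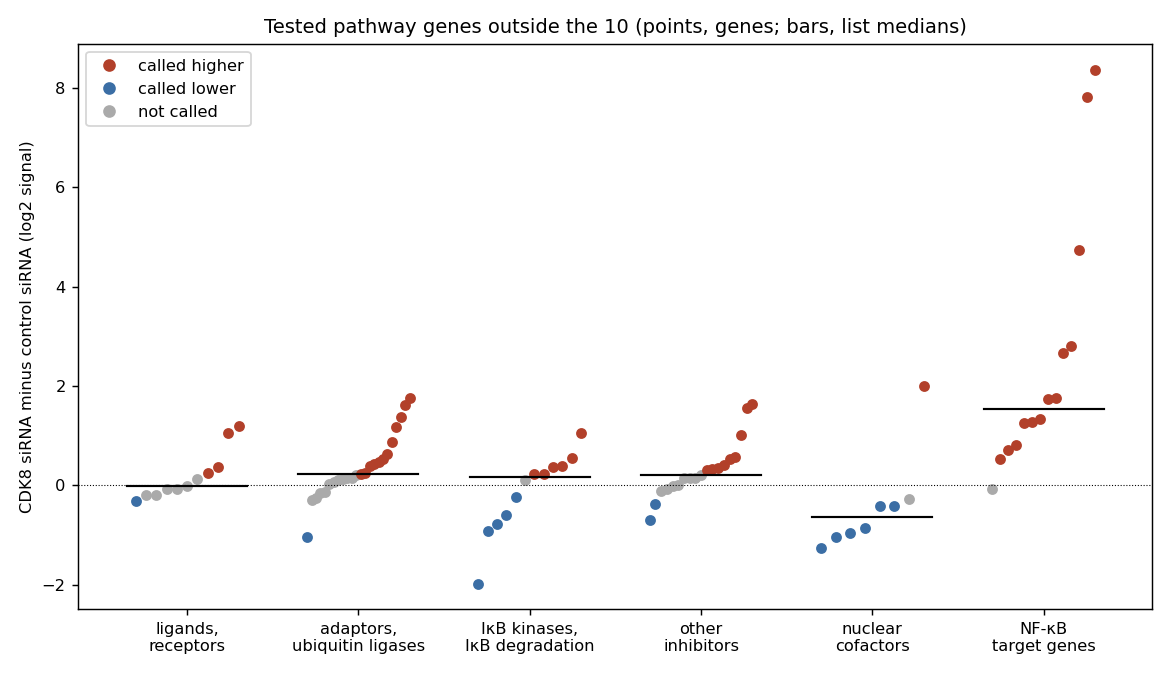
Difference in mean log2 signal, CDK8 siRNA minus control siRNA (vertical axis), of each tested gene in the 6 pathway lists outside the 10 genes. Points are genes, coloured by limma's call, and bars are list medians, from -0.64 for nuclear cofactors to 1.53 for NF-κB targets.

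The genes whose profile over the 4 arrays, set to the control siRNA mean, came closest to that of NFKBIA were LIPH, a lipase, CCN1, a matricellular protein, and NUAK2, a kinase, at Euclidean distances of 0.18, 0.19 and 0.26 log2 units. Their differences were 3.77 ± 0.08, 3.86 ± 0.09 and 3.65 ± 0.15. The closest to BCL3, at the other end of the range, were FBXO8, STON2 and NCBP1, at distances of 0.01, 0.02 and 0.02 and with differences of 0.33 ± 0.07, 0.34 ± 0.07 and 0.34 ± 0.07. With 4 arrays such a distance mostly ranks genes by the size of their difference.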

How the data were processed

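The deposited values were log2 signals that the authors made by RMA; the submitters' processing notes name Affymetrix Expression Console, while its version and settings and the array's genome build were not given in the sources used here. The table held 70523 rows, of which 67528 were transcript clusters and 2995 other features that were left out. Symbols came from the platform annotation (23781 clusters with 1 symbol, 1543 with several, 42204 unnamed here) and were updated through RefSeq (23777 matched, 306 changed). Of a gene's clusters the brightest was used. CDK8 siRNA was set against control siRNA with limma (version 3.58.1, under R 4.3.3), using lmFit and eBayes without covariates, over genes with a mean signal of at least 4.28, the median of all clusters, with Benjamini-Hochberg adjustment over all 13956 and a threshold of 0.05. The fit was tested on simulated data. Members, lists and tests were chosen with earlier results of these data known. Named genes were the 10 members and genes of the IκB kinase and inhibitor lists. In the other lists, up to 5 called genes per direction with the smallest p were named. The 3 nearest profiles of 2 members were also named. Genes named as uncalled, as markers, or as under the filter level on average or with control siRNA were chosen after their values were seen. Alternatives were each array left out, the replicate number as a block, quantile normalization, centring, eBayes with a trend or robust, the mean of a gene's clusters, and either no filter or a stricter one (6.17, the 75th percentile). The number of arrays limits the precision. Promoters came from RefSeq on GRCh38.p14. Figures were drawn with matplotlib 3.10.9.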

Additional observations from a re-analysis of the deposited data

How the results depend on the processing

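The 10 members kept their sign in all 80 recomputed differences (both scalings, the block, the mean of clusters and each array left out). Most of these outcomes were fixed in advance. In a balanced design with 1 cluster per member, the block and the mean of clusters return the same difference. Where groups do not overlap, leaving out 1 of 2 arrays cannot reverse a sign or move a difference beyond the pooled replicate SD. Only the scalings could do so. Of the 80 differences, 77 moved by less than the replicate SD. The other 3 (NFKB1, RELB and BCL3, with centred arrays) moved by more, to 0.54, 0.90 and 0.26. The members' median was 1.89 with the stricter filter, since only 7 members passed it. Of these, TNFAIP3 and NFKBIZ had control siRNA means of 5.53 and 5.665 and passed only through their CDK8 siRNA signals. The stricter filter was thus not independent of the contrast, and nothing is read from the higher median. With an array left out the members' median ran from 1.21 to 1.37. The stricter filter also left 2 upward calls among ligands and receptors and gave 2 downward calls among adaptors. Downward calls numbered 3 among ligands and receptors and 2 among adaptors with quantile normalization, 3 in each with centred arrays, and 2 among adaptors with robust eBayes; the cause was not tested. With an array left out, calls over all genes ranged from 1377 to 2097 upward and 1745 to 2414 downward. Upward calls then ranged from 1 to 2 for ligands and receptors, 4 to 8 for adaptors, 2 to 4 for IκB kinases and degradation and 4 to 7 for other inhibitors. Downward calls ranged from 0 to 1 for ligands and receptors and 1 to 2 for other inhibitors. The labels do not say what same-numbered arrays share beyond the number (correlation of their deviations, r = 0.121). With the replicate number as a block, 2838 genes were called higher and 3300 lower over all genes, and 2 adaptors were called lower. The block also called CREBBP lower (adjusted p = 0.0383) and lost IKBKB (adjusted p = 0.0547). Without the filter 14 of 24 NF-κB targets were called higher. In the main fit, with 2 arrays a group, the smallest difference called over all genes was 0.21 in size.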
